A study of Mus musculus with 2 samples.

Results

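The respiratory chain and the ATP synthase are described here from 157 probe sets that each name 1 gene and fit a rule on gene symbols. The rule takes symbols starting with Nduf (complex I), Uqcr (complex III), Cox4, Cox5, Cox6, Cox7 or Cox8 (complex IV) and Atp5 (complex V), together with Sdha, Sdhb, Sdhc and Sdhd (complex II) and Cyc1 (complex III). These probe sets read 85 genes, out of 12393 genes named on the array. A gene was counted as measured where its brightest probe set reached a signal of 80 on at least 1 array, which left 76 of the 85 genes and 135 of the 157 probe sets, out of 5911 measured genes in all. The measured genes were 37 of complex I, 4 of complex II, 9 of complex III, 9 of complex IV and 17 of complex V.

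RNA came from the livers of female mice, 2 months old, on a C57BL/6J background and homozygous for a disrupted apolipoprotein E gene, a genotype that all animals of the study share. For 4 weeks 6 mice ate chow with 10% olive oil by weight, and for the other 6 that oil was enriched in maslinic acid, a triterpene of the olive. Each diet is represented by 1 Affymetrix array, and the sources used here do not give whether its RNA came from 1 mouse or from a pool. With 1 array per diet there is no replicate and no test, and every difference below is one between these arrays as labelled. A pair of signals is always given with the array labelled olive oil first and the array labelled maslinic acid second, in units of MAS5 signal, and a log2 ratio is the second over the first.

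One check went against the labels. Apoe, the disrupted gene, read 407.7 and 7630.0, an 18.7-fold difference between arrays that carry the same genotype label, so the identity of the RNA on them is in doubt. While 0 of 4 cholangiocyte markers and 0 of 11 skeletal and heart muscle markers were measured, liver RNA itself was plain on both arrays. All 10 hepatocyte markers were measured, led by Apoa1 at 14330.1 and 13029.6. The median log2 ratio of these markers was -0.15, with 9 of the 10 below 0, and their summed signal was 93361.8 and 83910.3 (the median was -0.03 with quantile normalization and -0.08 with the trend of the ratio on signal removed). Fewer hepatocytes, less of these RNAs per cell and the trend of the ratio on signal cannot be told apart with these arrays of whole liver. The markers of macrophages and Kupffer cells lay at a median of 0.07 (9 measured, summed signal 10234.9 and 10487.6), those of stellate cells and fibroblasts at 0.21 (6 measured, 4045.7 and 3986.7) and those of endothelium at -0.17 (5 measured, 1174.4 and 999.6). Few markers of other cells were measured: 2 of lymphocytes, 1 of adipocytes (Fabp4, 0.43) and 1 of erythroid cells (Alas2, 0.68). The lymphocyte markers went opposite ways, with Ptprc at -0.14 and Ighm at 1.54 (median 0.70, summed signal 689.9 and 1269.6). The part of all these cell types in the results below was not tested.

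Oxidative phosphorylation takes place in the inner mitochondrial membrane. Complex I oxidises NADH and complex II oxidises succinate, both pass electrons to coenzyme Q, complex III hands them to cytochrome c, and complex IV reduces oxygen to water. Complexes I, III and IV pump protons, and complex V, the ATP synthase, makes ATP as the protons flow back. All subunits of complex II, and most of the others, are encoded in the nucleus by genes scattered over the chromosomes. The liver relies on this machinery to pay for gluconeogenesis, urea synthesis and bile formation.

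The nuclear genes of the chain are a textbook case of shared promoter elements, among them sites for NRF1 (nuclear respiratory factor 1), for the ETS factor GABP and for YY1. RefSeq promoters of build GRCm38.p6, each holding 250 bases before and 50 after a transcription start, were found for 70 of the 85 genes, 75 promoters in all. They were searched on both strands for GCGCANGCGC (NRF1), CCGGAAG (ETS factors, GABP among them) and AAGATGGC (YY1). The NRF1 letters stood in 17 of the 75 promoters (22.7%), against 4.6% of all 32851 promoters in the table. The ETS letters stood in 18 of the 75, against 8.86% of all promoters, and the YY1 letters in 9 (12.0% against 2.75%). At least 1 of the 3 was found in 39 of the 75, or 52.0%, against 14.7% of all promoters. A match of letters describes the sequence and does not show a bound site.

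Stretches upstream of the start from 8 genes show how the letters are placed in each complex. They run 5′ to 3′ along the gene's own strand, with the matched letters in capitals on whichever strand they matched. The stretches lie on the minus strand of build GRCm38.p6, at chr2:36049344-36049383 for Ndufa8, chr13:74350241-74350353 for Sdha, chr9:50603874-50603943 for Sdhd, chr4:116075071-116075095 for Uqcrh, chr5:115348959-115349135 for Cox6a1, chr11:115419936-115420075 for Atp5h, chr16:84835016-84835079 for Atp5j and chr5:108434425-108434464 for Atp5k.
Ndufa8: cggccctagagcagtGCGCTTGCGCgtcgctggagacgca
Sdha: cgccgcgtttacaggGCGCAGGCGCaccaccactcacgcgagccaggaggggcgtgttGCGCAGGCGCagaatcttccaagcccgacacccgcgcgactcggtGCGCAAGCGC
Sdhd: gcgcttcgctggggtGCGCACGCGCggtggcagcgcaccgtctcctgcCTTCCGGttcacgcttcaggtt
Uqcrh: gaggagtatgccgcaCTTCCGGcca
Cox6a1: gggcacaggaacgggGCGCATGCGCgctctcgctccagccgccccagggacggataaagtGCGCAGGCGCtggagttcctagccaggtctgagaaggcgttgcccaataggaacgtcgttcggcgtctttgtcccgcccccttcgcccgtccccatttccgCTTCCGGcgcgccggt
Atp5h: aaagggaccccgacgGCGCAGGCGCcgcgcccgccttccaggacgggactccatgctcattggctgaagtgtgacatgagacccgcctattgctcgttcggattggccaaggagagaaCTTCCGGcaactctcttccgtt
Atp5j: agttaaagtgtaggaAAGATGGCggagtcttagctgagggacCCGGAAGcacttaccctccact
Atp5k: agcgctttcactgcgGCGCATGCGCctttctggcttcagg

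Sdha carries 3 matches to the NRF1 letters in the last 98 bases before its start, Cox6a1 has NRF1 and ETS letters from 162 to 16 bases before the start, and Atp5j pairs YY1 letters with ETS letters. All of the genes shown but Sdha (log2 ratio 0.02) read lower as deposited, by unequal amounts. They are examples only, and Ndufaf1 (0.17), Ndufb6 (0.17) and Ndufs5 (0.06), which also carry letters, were higher. Of all measured genes with the letters, 11 of 15 (NRF1), 15 of 18 (ETS factors) and 8 of 9 (YY1) were lower. Without them, 36 of 49, 32 of 46 and 39 of 55 were, in the same order. For the genes shown the values were as follows. The log2 ratio was -0.02 for Atp5h, -0.12 for Sdhd, -0.13 for Ndufa8 and -0.16 for Cox6a1. It was -0.20 for Atp5j, -0.21 for Uqcrh and -0.215 for Atp5k. Over all measured genes with a promoter, the 15 with the NRF1 letters had a median log2 ratio of -0.09 and the 49 without them -0.07. The medians with and without the letters were -0.11 (18 genes) and -0.06 (46 genes) for ETS factors, and -0.06 (9 genes) and -0.07 (55 genes) for YY1. These medians are not matched for complex. The ETS letters were found for 6 of 15 genes of complex V and 5 of 36 of complex I. The NRF1 letters were found for 6 of 15 and 6 of 36, and the YY1 letters for 3 of 15 and 6 of 36. Whether genes with and without the letters differ was not tested.

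Over all complexes, 56 of the 76 measured genes (73.7%) read lower on the array labelled maslinic acid, where 52.0% of all 5911 measured genes were, and 19 were higher, where 47.8% of all genes were. The share of lower genes was 64.5% after quantile normalization, against 51.7% of all genes, and 63.2% after the trend of the ratio on signal was removed, against 51.2%. The differences were small. The median log2 ratio was -0.07, against -0.0099 over all genes, and the range ran from -0.43 (Atp5md) to 0.22 (Ndufs8). Only 3 of the 76 genes, Atp5md, Ndufaf4 and Cox8a, were at least 1.2-fold lower (9.52% of all genes were), and 0 were at least 1.2-fold higher (9.47% of all genes). None of the 76 reached 1.5-fold in either direction, which 3.05% of all genes did. These shares are not matched for signal. At a mean signal of at least 1000, 2 of 68 members were at least 1.2-fold lower and 0 higher, against 47 and 37 of all 973 genes. Of those 973 genes, 4 were at least 1.5-fold lower and 7 higher. Counted by probe set, 100 of 135 were lower, against 50.7% of all measured probe sets.

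The complexes differed in how uniform they were. All 17 genes of complex V were lower as deposited (14 after quantile normalization and 15 with the signal trend removed, where Atp5h, Atp5g2 and Atp5pb turned in at least 1 setting), as were 8 of 9 in complex IV and 7 of 9 in complex III, against 22 of 37 in complex I and 2 of 4 in complex II. The median log2 ratios were -0.02 for complex I, -0.03 for complex II, -0.06 for complex III, -0.10 for complex IV and -0.09 for complex V. With quantile normalization and with the signal trend removed, the median was -0.04 and -0.03 for complex IV, -0.02 and -0.03 for complex III, and -0.08 and -0.06 for complex V. Complex IV then had 6 of 9 genes lower in each, and complex III 7 and 5 of 9. The order of the complexes describes this pair of arrays and was not tested.

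**Figure D1:**
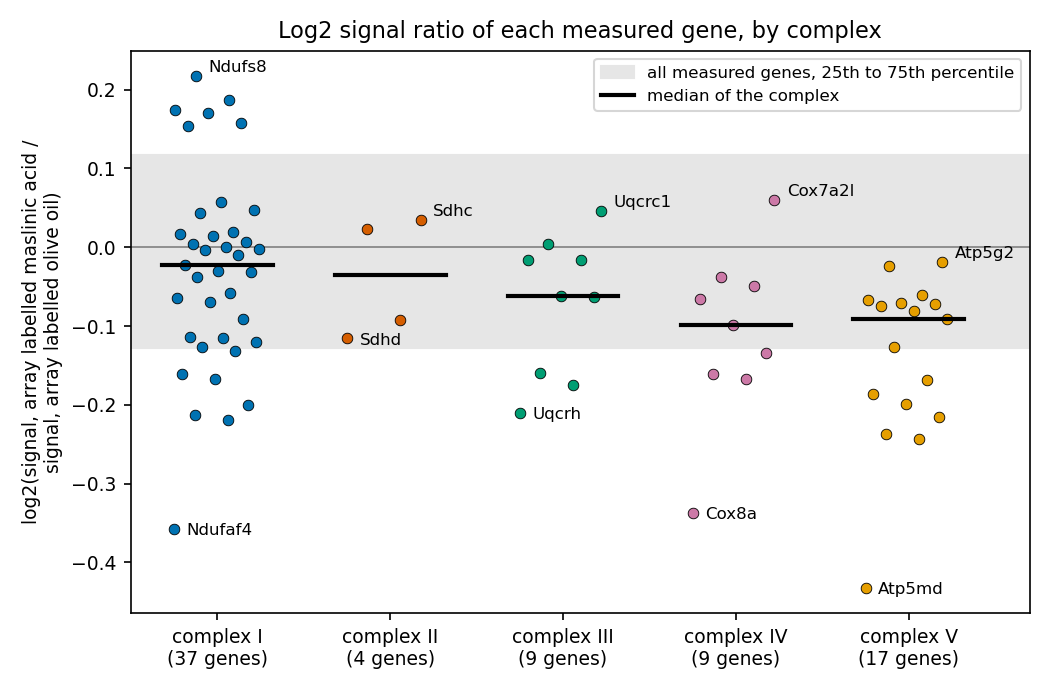
Each point is 1 measured gene, placed by complex on the x axis and by the log2 ratio of its signals (array labelled maslinic acid over array labelled olive oil) on the y axis, with the complex's median as a black line and the middle of all 5911 measured genes as a grey band. With values as deposited the 17 genes of complex V all lie below 0, some only until the arrays are rescaled, while the 37 genes of complex I spread from -0.36 to 0.22.

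In complex V the genes farthest from 0 were mostly those of small membrane subunits. The 5 small subunits of the membrane part that are not in the c ring (e, f, g, k and j), some of which hold dimers of the synthase together, had a median log2 ratio of -0.24, and the other 12 genes had -0.07. Atp5md, the gene of subunit k (DAPIT), read 1914.5 and 1419.1, a log2 ratio of -0.43 and the lowest of all 76. Atp5mpl, the gene of the small proteolipid subunit j, read 1319.5 and 1119.9, 1.18-fold lower. Atp5k, the gene of subunit e, read 2326.9 and 2004.8, and its 3 probe sets gave log2 ratios from -0.23 to -0.12, all on the same side. Atp5l, the gene of subunit g, read 2329.4 and 2134.3, a log2 ratio of -0.13. Atp5j2, the gene of subunit f, was less settled: it read 4746.2 and 4009.9 on its brightest probe set, a log2 ratio of -0.24, but 3603.0 and 3642.7 on the other (0.02). The medians of these 5 and of the other 12 genes were computed for a division made after the values were seen.

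The 5 genes of the catalytic head and central stalk lay close together, with a median of -0.08, and stayed below 0 in every scaling run. Atp5b encodes the catalytic beta subunit, and read 5172.4 and 4922.5, a log2 ratio of -0.07. Atp5a1, for the alpha subunit, read 3105.4 and 2935.4, and its 3 probe sets lay between -0.11 and -0.08. Atp5c1, for the gamma subunit that turns inside the head, read 4571.7 and 4293.8 (-0.09). The epsilon gene Atp5e read 1833.7 and 1744.9 (-0.07). The delta gene Atp5d was lower than its neighbours in the stalk, at 3112.8 and 2770.9 (-0.17), with -0.19 on its other probe set.

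The c ring, which carries the protons, is made of 1 mature protein encoded by 3 genes that differ in their mitochondrial targeting sequences. Atp5g3 read 6527.7 and 5737.2, a log2 ratio of -0.19. Atp5g1 read 1720.3 and 1642.2 (-0.07), and Atp5g2 read 1590.3 and 1569.6 (-0.02). The 3 genes lay on the same side by unequal amounts as deposited, with Atp5g2 at 0.01 after quantile normalization, and 1 probe set reads each of them, so the spread between probe sets is not known for any.

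In the peripheral stalk, which keeps the head from turning, Atp5j, the gene of coupling factor 6, stood lowest at 2725.9 and 2373.9, a log2 ratio of -0.20. Atp5pb, for subunit b, read 6120.9 and 5866.7 (-0.06), and Atp5h, for subunit d, read 5540.3 and 5450.4 (-0.02, turning to 0.04 in both of the rescalings named above). Atp5o encodes the oligomycin sensitivity conferral protein at the top of the stalk. Its brightest probe set read 1366.1 and 1297.0 (-0.07), but the other read 705.4 and 879.1, a log2 ratio of 0.32 in the opposite direction.

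**Figure D2:**
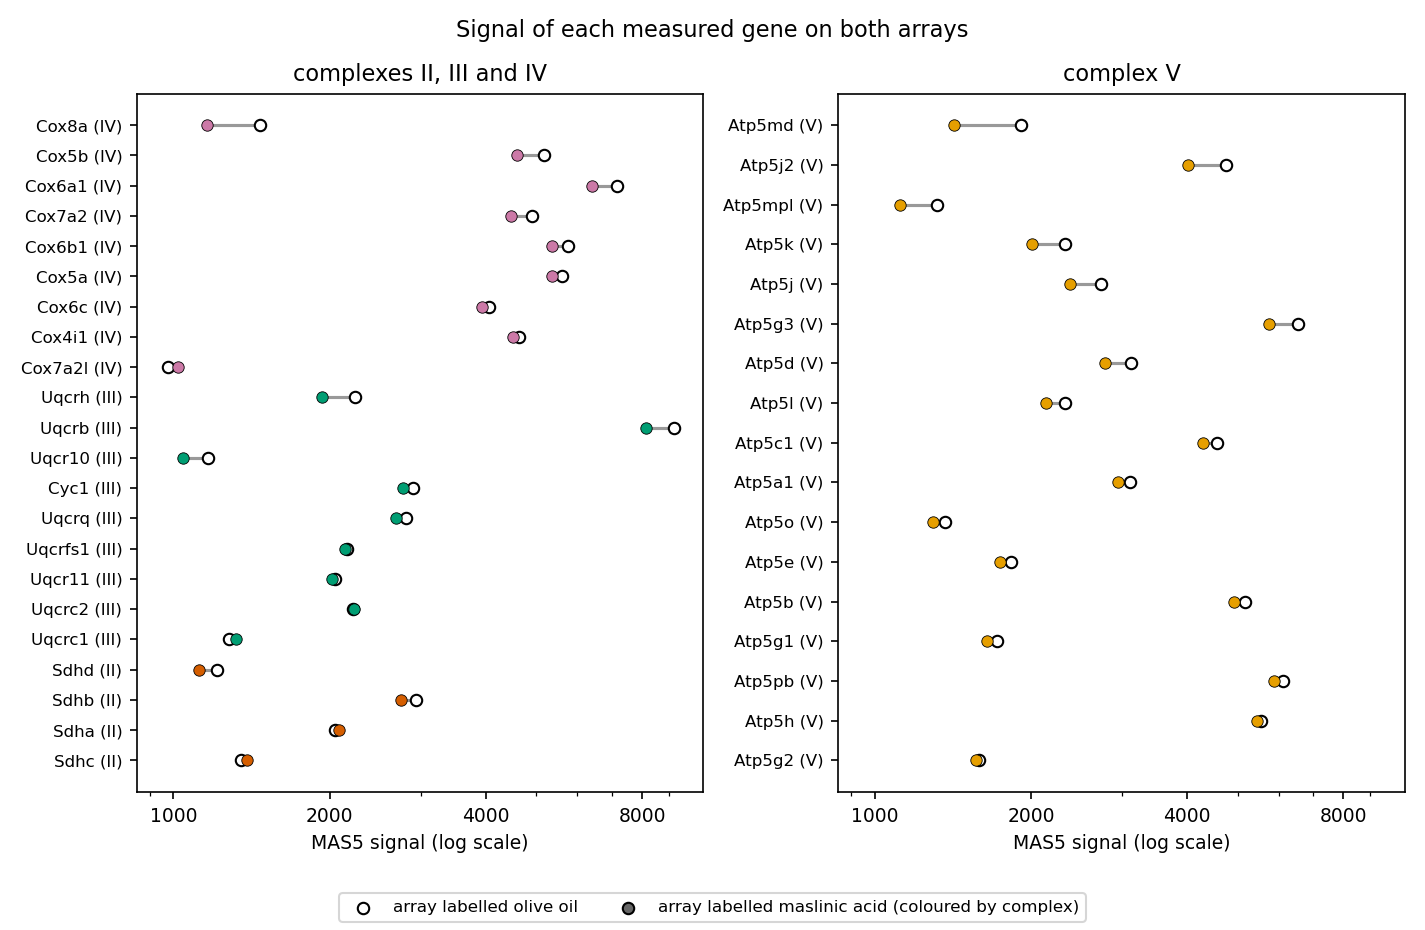
Signals of each measured gene of complexes II, III and IV (left) and of complex V (right) on a log axis, with an open point for the array labelled olive oil and a filled point for the array labelled maslinic acid. With values as deposited, filled points lie to the left of open ones for all 17 genes of complex V (14 after quantile normalization), with the widest gap at Atp5md (1914.5 and 1419.1), and for 8 of the 9 genes of complex IV.

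Complex IV, cytochrome c oxidase, has its catalytic core encoded by the mitochondrial genome, and the genes here encode the nuclear subunits around it. Cox8a, for the smallest of them, read 1468.4 and 1162.0, 1.26-fold lower, and its other measured probe set gave a log2 ratio of -0.18. Cox5b was lower on all 4 of its measured probe sets, with log2 ratios from -0.26 to -0.17 and a signal of 5166.3 and 4601.4 on the brightest. Cox6a1 read 7151.2 and 6393.8 (-0.16) and Cox7a2 read 4905.5 and 4470.1 (-0.13), each with a further probe set on the same side. Cox4i1, the widespread form of the regulatory subunit 4, read 4638.6 and 4517.8, a log2 ratio of -0.04 that turned to 0.02 in both rescalings. Cox5a read 5603.2 and 5352.6 (-0.07), Cox6b1 5750.6 and 5368.3 (-0.10), and Cox6c 4063.5 and 3926.7 (-0.05). The other probe set of Cox6c went the opposite way, at 2100.4 and 2642.8 (0.33).

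Of the 9 measured genes of complex IV, only Cox7a2l was higher. It encodes a relative of subunit 7a that joins complexes III and IV into supercomplexes, and C57BL/6J mice carry a shortened form of it. It read 976.8 and 1018.1 (0.06), while its 2 other probe sets gave -0.08 and -0.16. Ndufa4, named as a complex I subunit but found in complex IV, read 3100.2 and 2663.0, a log2 ratio of -0.22. By brightest probe set, only Cox8a (-0.34) was lower in complex IV. With Ndufa4 moved there and Cox7a2l left out, all 9 genes of complex IV were lower with values as deposited, and the median was -0.13.

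Tissue-specific forms of complex IV subunits were dim, as is usual for liver. The heart and muscle forms Cox6a2 (15.6 and 19.7) and Cox8b (1.1 and 30.4) and the lung form Cox4i2 (9.3 and 4.8) stayed under 40 on both arrays, the level to which lower signals were raised before a ratio was taken. The testis form Cox6b2 (14.8 and 23.7) did so too. The muscle form Cox7a1, at 53.5 and 57.0, and the testis form Cox8c, at 50.7 and 64.9, lay just under the minimum of 80. The highest signal of any of the 11 muscle markers was 17.6. Cox7c, a form found in all tissues, also failed the minimum at 40 and 32.8 on the brighter of its 2 probe sets, as did Ndufb1 (52.3 and 43.1) and the assembly factor Ndufaf5 (53.1 and 52.0). A dim reading here does not show that a transcript is scarce, since probe sets differ in how well they bind. The dimmest measured gene was Ndufaf7, at 113.8 and 129.5, and the dimmest measured probe set was one of Ndufs4, at 68.0 and 83.9.

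Complex III passes electrons from reduced coenzyme Q to cytochrome c. Its 5 small subunits were all lower, with a median log2 ratio of -0.16, although with the signal trend removed Uqcr11 turned to 0.01 and the median was -0.09, and with the probe sets of each gene averaged it was -0.06. Uqcrh, the gene of the acidic hinge protein that docks cytochrome c, read 2239.6 and 1935.9 (-0.21), and Uqcr10 read 1166.6 and 1044.7, with 3 probe sets between -0.16 and -0.05. Uqcrb, for a subunit near the quinone site, read 9205.4 and 8152.8 (-0.18) on 1 probe set and 1956.3 and 2099.6 (0.10) on the other. Uqcrq read 2802.8 and 2684.9 (-0.06) and Uqcr11 2044.2 and 2021.8 (-0.0159). The subunits that carry electrons lay nearer 0: Cyc1, for cytochrome c1, read 2891.2 and 2768.2 (-0.06), and Uqcrfs1, for the Rieske iron-sulphur protein, 2164.4 and 2139.4 (-0.0168). The genes of the core proteins were the 2 of the complex that were not lower as deposited. Uqcrc1 read 1279.1 and 1320.3 (0.05) and Uqcrc2 2218.3 and 2225.2 (0.0045, or -0.002 with equal medians). The other probe set of Uqcrc2 went the opposite way, at 1991.1 and 1889.7 (-0.08).

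Complex II is the only one that also works in the tricarboxylic acid cycle, as succinate dehydrogenase. Sdha, the flavoprotein that oxidises succinate, read 2052.0 and 2084.2, and both of its probe sets gave a log2 ratio of 0.02. Sdhb, its iron-sulphur partner, read 2927.2 and 2746.3 (-0.09). Of the membrane anchors, Sdhc read 1352.0 and 1384.5 (0.03), with 0.24 on a dimmer probe set, and Sdhd read 1212.2 and 1118.7 (-0.12), with 0.33 on a dimmer one at 219.1 and 276.3. The direction for the complex depended on how probe sets were combined: the median of its 4 genes was -0.03 with the brightest probe set and 0.07 with the mean of all measured ones.

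Complex I is the largest complex, and its genes went both ways. Without Ndufa4 and the assembly factors, 19 of its 32 subunit genes were lower and 12 higher, with a median log2 ratio of -0.016, and Ndufa5 read 1437.9 on both arrays. The median was -0.0027 over the 9 genes of the N module, which oxidises NADH, -0.03 over the 5 of the Q module, which reduces coenzyme Q, -0.0166 over the 8 of the proximal membrane arm and -0.03 over the 10 of the distal membrane arm. The N module and the proximal arm turned above 0 in both rescalings, at medians of 0.02 and 0.01 after quantile normalization, while the medians of the Q module and the distal arm stayed below 0 in every setting run.

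In the N module, Ndufv1, which binds the flavin that takes electrons from NADH, read 2063.1 and 1844.8 (-0.16), but its 3 probe sets ran from -0.16 to 0.05. Its partner Ndufv2 read 1904.0 and 1962.6 (0.04), with other probe sets down to -0.12. Ndufs1, for the largest iron-sulphur subunit, read 671.4 and 666.9 (-0.0097). Ndufa12 read 2403.9 and 2091.6 and was lower on all 3 of its probe sets (-0.20 to -0.03). Ndufs4, which stabilises the module and whose loss models Leigh syndrome in mice, went the other way on all 3 of its probe sets (0.0084 to 0.30), with 503.5 and 561.5 on the brightest.

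In the Q module, Ndufs3 read 1336.0 and 1273.6 (-0.07) and Ndufs7, which holds the last iron-sulphur cluster before the quinone, read 1367.2 and 1338.0 (-0.03). Ndufa9, at the joint of the arms, read 1698.3 and 1549.6 (-0.13). Ndufs8 was nominally the highest of all 76 genes, at 2594.7 and 3015.7 (0.22). Its 6 measured probe sets contradicted each other, however, with 4 between -0.28 and -0.08 and 1 dim one, at 78.4 and 106.8, at 0.45.

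In the membrane arm, Ndufa13 (GRIM-19) was lowest, at 3423.9 and 2955.1 (-0.21), followed by Ndufb7, at 1737.5 and 1547.1 (-0.17) with -0.07 on its other probe set. Ndufb6 read 2064.8 and 2323.0 (0.17) and Ndufb2 1297.5 and 1443.1 (0.15), each with a second probe set below 0. Ndufb11 was lower on all 3 of its probe sets (-0.19 to -0.02), and Ndufb9, the brightest gene of the complex, read 4178.9 and 3921.6 (-0.09). Ndufab1, the mitochondrial acyl carrier protein, read 1664.8 and 1639.2 (-0.02), with 0.10 on its other probe set. Ndufa3 (3212.4 and 3206.0) and Ndufc2 (2762.7 and 2795.5) also had probe sets of both signs, all within 0.08 of 0. The other complex I subunits, not described one by one, lay between -0.13 (Ndufa8, 1342.3 and 1229.3) and 0.06 (Ndufs5, 1216.9 and 1266.0).

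The 4 measured assembly factors of complex I, which help build the enzyme and are not part of it, were dimmer than 450 on both arrays and went both ways. Ndufaf4 read 222.0 and 173.3 (-0.36) on its brighter probe set and 128.5 and 152.5 (0.25) on the other. Its partner Ndufaf3 read 189.3 and 174.9 (-0.11). Ndufaf1 read 374.1 and 422.0 (0.17), and Ndufaf7, a methyltransferase, had a log2 ratio of 0.19.

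Repeat readings of the same gene give the only measure of error. Of the 76 genes, 40 had several measured probe sets, which share the hybridised sample and so cover technical spread alone. Pooled over these 40 genes, their log2 ratios had an SD of 0.14 within a gene, against 0.232 over the 1815 such genes of the whole array. These SDs are not matched for signal: 68 of the 76 genes had a mean signal of at least 1000, against 973 of all 5911. All measured probe sets were lower for 20 of the 40 genes and higher for 3, and they had both signs for 16. Over the 1815 such genes of the whole array, all were lower for 435 and all higher for 435. By complex, all were lower for 5 of 7 genes in complex V and 6 of 8 in complex IV, against 8 of 19 in complex I, 1 of 3 in complex III and 0 of 3 in complex II. The log2 ratio of -0.43 at Atp5md is larger in size than the SD of 0.14, but 1 probe set reads the gene.

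**Figure D3:**
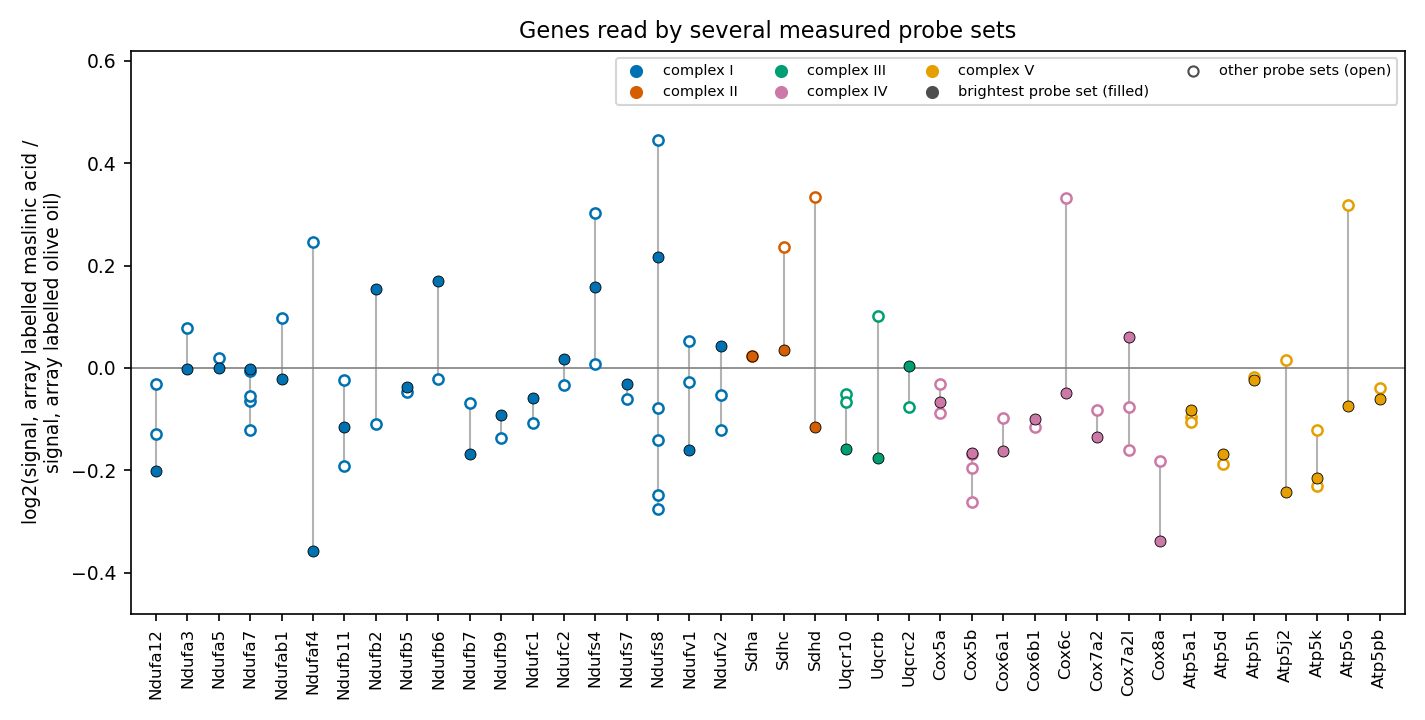
Log2 ratio (array labelled maslinic acid over array labelled olive oil) of every measured probe set for the 40 genes read by several, coloured by complex, with the brightest probe set of a gene filled and the others open. Probe sets of Cox5b, Cox5a, Atp5a1 and Atp5d lie close together below 0, while the 6 of Ndufs8 run from -0.28 to 0.45.

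Signal strength moved with these results. Of the 76 genes 68 had a mean signal of at least 1000, and 53 of those (77.9%) were lower, where 60.8% of all genes that bright were. Among genes with a mean signal of at least 4000, all 14 members were lower, with a median log2 ratio of -0.10, and so were 148 of 186 other genes, with a median of -0.09. Complex IV has 6 of its 9 genes in that range, with a median of -0.12. Between 1000 and 4000, 39 of 54 members were lower (median -0.06), against 391 of 719 other genes (median -0.0162). In that range all 11 genes of complex V were lower, with a median of -0.13, and 18 of 29 genes of complex I, with a median of -0.03. With the trend removed by a loess curve, 15 of 17 genes of complex V, 6 of 9 of complex IV, 5 of 9 of complex III and 20 of 37 of complex I were lower, and the medians were -0.06, -0.03, -0.03 and -0.01. The hepatocyte markers were bright and mostly lower as well (summed signal 93361.8 and 83910.3), and their part in the result was not tested.

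**Figure D4:**
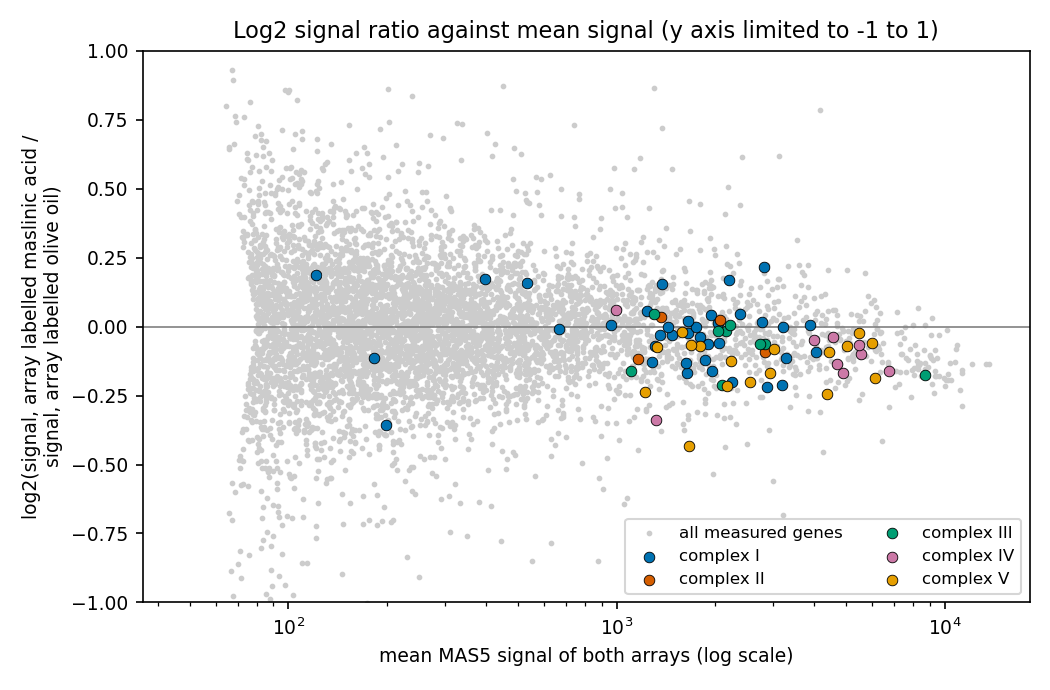
Log2 ratio (array labelled maslinic acid over array labelled olive oil) against mean signal on a log axis, with all 5911 measured genes in grey (those beyond 1 on the y axis are not shown) and the measured genes of the 5 complexes in colour. The grey cloud bends below 0 at high signal, where most genes of complex IV lie, while the genes of complex V between 1000 and 4000 lie below the middle of the cloud.

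Lists of other mitochondrial genes had medians between -0.0145 and 0.05, and whether they differ from the 5 complexes was not tested. The lists are not matched to the complexes for signal. Of the 76 members 68 had a mean signal of at least 1000, while 74 mitochondrial ribosomal protein genes summed to 30398.7 and 30434.5. Over the whole array, the median was -0.0018 for genes with a mean signal under 1000 and -0.0351 for those of at least 1000. Of 12 measured genes of the tricarboxylic acid cycle 9 were higher and 3 lower (7 and 5 with equal medians), with a median log2 ratio of 0.01. Dlst (0.20) and Suclg2 (0.18), for a subunit of oxoglutarate dehydrogenase and of succinyl-CoA ligase, lay farthest from 0. The 74 mitochondrial ribosomal protein genes divided into 34 lower and 40 higher, with a median of 0.01, from Mrpl50 (-0.34) to Mrpl54 (0.44). Of the 28 measured assembly factors outside the rule, counted with cytochrome c, 17 were lower and 11 higher (median -0.0145), with Cox16 at -0.28 and Coa7 at 0.26. Cycs, the cytochrome c gene itself, read 3538.8 and 3771.0 (0.09). Coenzyme Q synthesis had 7 of 9 genes higher and a median of 0.05, with Coq5 at -0.42 and Coq4 at 0.39.

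Genes of mitochondrial transcription and biogenesis were divided, 6 lower and 8 higher of 14, with a median of 0.04. The farthest from 0 were Ssbp1, the mitochondrial single-strand DNA binding protein, at -0.34, and the coactivator gene Ppargc1a at -0.28. The factors whose letters were searched in the promoters were dim or little apart: Nrf1 lay under the minimum at 50.1 and 40.6, Gabpa read 327.5 and 364.1 (0.15) and Yy1 899.1 and 826.9 (-0.12). The cytosolic ribosomal protein genes, bright like the respiratory chain but not mitochondrial, were lower in 28 of 39 cases, with a median of -0.06 that went to 0.002 with the signal trend removed (19 lower, 20 higher), and the farthest from 0 were the dim Rps27 (-0.83) and Rpl39 (0.71).

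**Figure D5:**
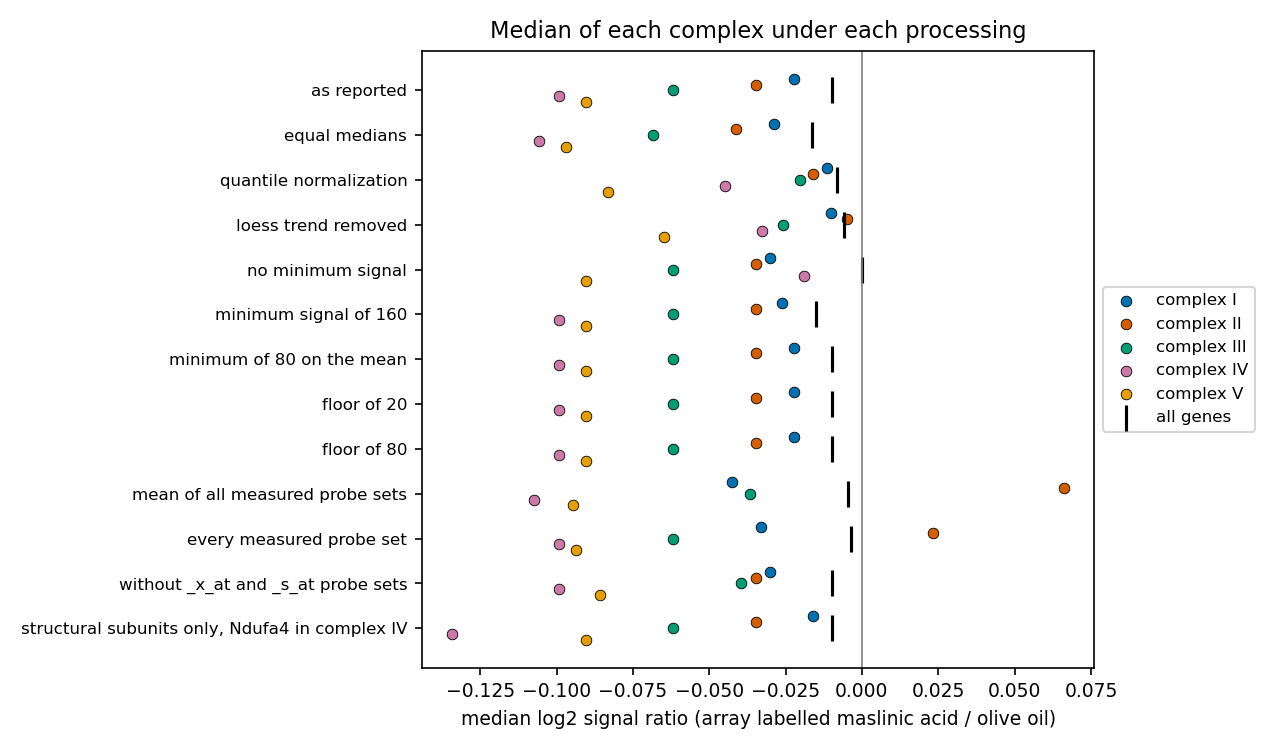
Median log2 ratio (array labelled maslinic acid over array labelled olive oil) of each complex, on the x axis, under each processing setting, on the y axis, with the median of all genes as a black bar. The median of complex V stayed between -0.10 and -0.06 in every setting shown, that of complex IV ranged from -0.13 to -0.02, and that of complex II lay above 0 in 2 settings.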

How the data were processed

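Each probe set has 1 deposited intensity on each array, unlogged, from the authors' use of MAS5 according to the submitters' processing notes. The sources used here give neither its version nor its settings. Biotin-labelled cRNA was made from 1 microgram of total RNA, per the labels' protocols. The 2% trimmed mean was 200.1 on each array, and the 22690 intensities ran from 0.1 to 14375.4 and from 0.1 to 13029.6. No depth applies to arrays, and 1 array per diet limits the precision of every value. Probe sets were named from GEO's platform annotation, control probe sets and those naming several genes were left out, and a gene was represented by its brightest probe set. Signals under 40 were set to 40, and a gene needed 80 on at least 1 array. Values were used as deposited, with no further scaling.

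The members and lists were chosen with earlier results of these data known, and the modules and signal ranges after the values were seen. Genes named in the text are the core, extreme and isoform genes of each complex, those whose probe sets disagree in sign, and those near the minimum. Of each comparison list the 2 members farthest from 0 are named, except for mitochondrial ribosomal proteins, where the lowest and the highest are. Cycs, Nrf1, Gabpa, Yy1 and a few further subunits were added after their values were seen. Python 3.11.15, pandas 2.3.3, statsmodels 0.14.6 (loess, span 0.4) and matplotlib 3.10.9 were used, and the summaries were tested on simulated data. Alternatives were other scalings, minimums, floors, ways of combining probe sets, and subunit definitions.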

Additional observations from a re-analysis of the deposited data

Results flagged for a closer look

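Of 9 probe sets of the respiratory chain outside the members, 7 gave signals above the minimum of 80. The other 2 did not: that shared by Ndufb2 and Adck2 read 11.9 and 4.5, and that shared by Ndufa13 and Yjefn3 read 5.3 and 9.6, with the array labelled olive oil first. The probe set of ND5, a complex I subunit encoded by the mitochondrial genome, read 10006.6 with the olive oil label and 8827.3 with the maslinic acid label, 1.13-fold lower (log2 ratio -0.18). Of the 186 genes outside the members with a mean signal of at least 4000, 148 were lower, with a median log2 ratio of -0.09. The other measured probe sets outside the members name several genes that share sequence, so a signal cannot be given to 1 of them. In the same order of arrays, the probe set shared by Ndufa11 and Ndufa11b read 722.7 and 702.6, and that shared by Ndufab1 and its pseudogene 1202.9 and 1252.1. The pair of probe sets shared by Ndufb4, Ndufb4b and Ndufb4c read 2172.4 and 2111.4, and 1488.2 and 1403.9. That shared by Ndufs5 and its pseudogene read 1119.2 and 1157.6, and that shared by Ndufs6 and Ndufs6b 1508.4 and 1566.6. The measured probe sets naming several genes lay within 1.06-fold between the arrays.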

How the results depend on the processing

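No paired analysis was possible because there is a single array per diet, and for the same reason no array could be left out. Of 108 medians and counts of the members under the alternatives, 104 moved by less than the SD between probe sets of 1 gene (medians) or by less than 1.5 times (counts). The exceptions were counts. With every measured probe set counted on its own, 100 of 135 were lower and 5 were at least 1.2-fold higher; with no minimum signal 1 gene, Cox8c, was at least 1.2-fold higher; and with the mean of all measured probe sets 1 gene was at least 1.2-fold lower. That SD is larger than the medians themselves, so it says little on direction. The share of members lower was 64.5% with quantile normalization and 63.2% with the loess trend removed, against 51.7% and 51.2% of all genes. The median of complex V was -0.08 and -0.06 in these settings and that of complex IV -0.04 and -0.03. The median of the small membrane subunits of complex V ranged from -0.24 to -0.19, and that of its other subunits from -0.08 to -0.05, over 11 alternatives chosen after seeing the data. Of 822 values of single genes under the alternatives, 31 turned in sign, in 19 genes, most of them near 0. Those that moved by more than the SD were Sdhd (to 0.11), Atp5o (0.12), Cox6c (0.14), Ndufs8 (-0.0136) and Ndufaf4 (-0.06) with the mean of all probe sets, and Atp5j2 (0.02) with cross-hybridising probe sets (suffix _x_at or _s_at) left out; the cause was not tested. The median of cytosolic ribosomal protein genes turned from -0.06 to 0.002 with the loess trend removed.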
